A study of Mus musculus with 6 samples.

Results

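The miRNAs of the imprinted miR-379 to miR-410 cluster are described here in the mouse brain with and without the RNA editing enzyme ADAR2. They were chosen by number alone, as every listed mature miRNA of 32 hairpin numbers of this cluster, with either arm and any letter and without the miR-376 family, which gave 63 of 1055 listed miRNAs. Small RNA was sequenced from whole brains of 3 wild-type and 3 Adar2-/- mice, which were female siblings of strain 129SV aged 5.5 months. All 6 animals, the controls included, were homozygous for the pre-edited Gria2 R/R allele, which spares Adar2-/- mice from early death, so that wild type here means intact Adar2 on that background. The study describes 3 biological replicates of each genotype, and each library is taken here as a single brain. Levels are given as RPM, the number of reads on a miRNA in every 1000000 reads that its library had on miRNAs. Adar2 mRNA was not analysed here, and miRNA counts hold no check of the genotype.

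The cluster lies in the Dlk1-Dio3 domain, where non-coding RNAs are transcribed from the maternal chromosome, and a long primary transcript is cut by DROSHA and DICER into many hairpin-derived miRNAs. The cluster is known for brain expression and for activity-dependent transcription in neurons, and miR-134, its best studied member, restrains the size of dendritic spines. ADAR2 is an RNA editing enzyme of neurons. Where it edits the hairpin of a miRNA, an A of the gene appears as a G in the sequenced reads.

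On the mouse genome build NCBIM37 the 32 hairpins lay on the plus strand of chromosome 12, between 110947270 and 110982005, a stretch of 34736 bp. The gaps between neighbouring hairpins ran from 21 to 4369 bp, with a median of 645 bp. At the distal end, 9 hairpins lay within the annotated non-coding gene Mirg. A mature sequence of RefSeq was found for 60 of the 63 members, and miR-485, miR-487b and miR-539-3p had none in the table used.

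The mature forms of the 8 most read members are printed 5′ to 3′, with the seed, bases 2 to 8, in capitals.
miR-382: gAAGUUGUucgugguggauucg
miR-379: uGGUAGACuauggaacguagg
miR-381: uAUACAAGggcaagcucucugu
miR-134: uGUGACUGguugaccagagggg
miR-541: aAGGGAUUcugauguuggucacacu
miR-369-5p: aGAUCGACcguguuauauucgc
miR-300: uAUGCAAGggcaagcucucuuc
miR-154: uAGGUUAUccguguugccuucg
No seed was shared among these 8. Among all members with a sequence, 4 seeds were shared by a pair of members each: GGUAGAC by miR-379 and miR-1193-5p, AUGUAAC by miR-379* and miR-411*, GGUUGUC by miR-410* and miR-494*, and GGUUGCC by miR-453 and miR-496*.

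Further members are shown because they are similar to each other, because the ratio of the arms of their hairpin is described further on, or because they had the smallest p-values. The seed is again in capitals.
miR-379*: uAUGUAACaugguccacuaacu
miR-411*: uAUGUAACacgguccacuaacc
miR-411: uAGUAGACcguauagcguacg
miR-495: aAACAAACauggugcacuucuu
miR-543: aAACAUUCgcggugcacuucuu
miR-495*: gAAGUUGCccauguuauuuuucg
miR-154*: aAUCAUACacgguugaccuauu
miR-369-3p: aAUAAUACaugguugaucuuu
miR-410: aAUAUAACacagauggccugu
miR-377: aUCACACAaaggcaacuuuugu
The first base at the 5′ end is position 1. miR-379* differed from miR-411* by U10C and U22C. miR-300 differed from miR-381 by G4A, U21G and C22U, so the seeds of this pair differed at a single base.

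An adenosine read as guanosine within a seed would give the seed of another member in 9 of the 60 sequences. In miR-381 the change A4G gave AUGCAAG, the seed of miR-300. In miR-411 the change A2G gave GGUAGAC, the seed of miR-379, and in miR-410 the change A4G gave AUGUAAC, the seed of miR-379* and miR-411*. The study names miR-381 and miR-411 among the edited miRNAs, at these same positions. It reports that without ADAR2 editing rose in miR-381 and fell in miR-411. The counts hold no base calls, so editing itself was not measured here, and the mapping allowed about 2 mismatches in each read.

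The 63 members together took a small and similar share of each library. Their summed level was 18890, 20614 and 24909 RPM in wild-type libraries 1 to 3 and 16814, 19536 and 19509 RPM in Adar2-/- libraries 1 to 3. Thus 1.68% to 2.49% of the mapped miRNA reads came from the cluster. The half-width of the 95% Wilson interval was up to 0.00756 percentage points and covers counting error alone, since reads are not independent molecules. The mean was 21471 ± 3100 RPM in wild type and 18620 ± 1564 RPM in Adar2-/- (SD, n = 3), a log2 ratio of -0.21, and the genotypes overlapped. For comparison, the miRNAs antisense to Rtl1 in the same domain, of which 11 were listed, summed to 69231 ± 30013 RPM in wild type and 68438 ± 6941 RPM in Adar2-/-.

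Reads were concentrated on few hairpins. With both arms summed, Mir379 gave 24.1% of the cluster's mean RPM, Mir382 24.1%, Mir381 14.6%, Mir134 10.9% and Mir541 8.29%, so these 5 hairpins held 82.0%. Of these hairpins only Mir382 and Mir134 were neighbours. Mir379 was the first hairpin of the cluster, Mir381 the 16th, Mir382 the 20th, Mir134 the 21st and Mir541 the 28th. Mir453, the 24th, gave a single read in a single library. Across the 43 members with at least 100 reads in every library, mean RPM and position had a Spearman rho of 0.089, given as a description over members that share hairpins and libraries.

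**Figure D1:**
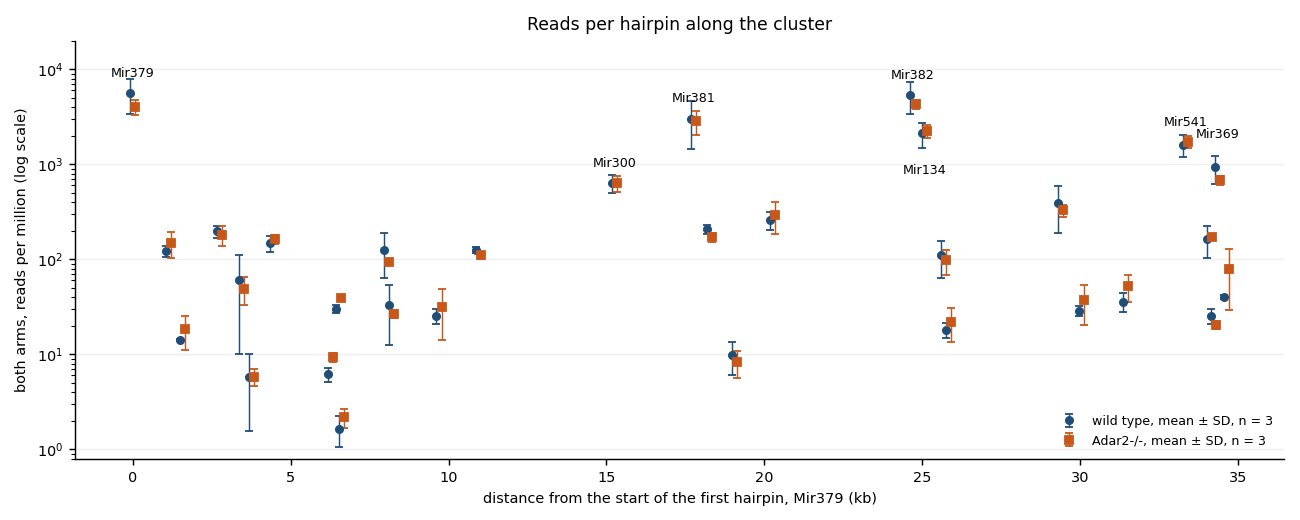
Summed reads of both arms for 31 of the 32 hairpins (Mir453, with a single read, is left out), as mean ± SD in RPM on a log scale, n = 3 per genotype, against the distance in kb from the start of Mir379. The 7 hairpins with the highest mean are named. Apart from Mir379 they lie from Mir300, the 15th hairpin, onward, with weakly read hairpins among them, in both genotypes.

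miR-382 was the most read member and the 28th of all 1055 miRNAs. Its level was 7230, 3324 and 5471 RPM in wild type and 4527, 4611 and 3778 RPM in Adar2-/-. The knockout values lay within the wild-type range, and the log2 fold change was -0.31 ± 0.35 (SE, edgeR, adjusted p = 0.988). It was -0.031 without wild-type library 1, the highest, and -0.56 without wild-type library 2, the lowest. miR-379, the first miRNA of the cluster, was read at 3360, 5652 and 7761 RPM in wild type and at 3226, 4674 and 4125 RPM in Adar2-/-. Its log2 fold change was -0.48 ± 0.37 (edgeR, adjusted p = 0.988), and wild-type library 1 was nearly as low as the lowest knockout library. The value was -0.74 without wild-type library 1 and -0.17 without wild-type library 3, the highest.

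miR-381 showed 1281, 4342 and 3455 RPM in wild type and 2026, 2789 and 3641 RPM in Adar2-/-. Wild-type library 1 was the lowest of the 6, and the log2 fold change of -0.10 ± 0.45 (edgeR, adjusted p = 0.989) was smaller than its error. For miR-134, the regulator of dendritic spines, the values were 1449, 2667 and 2196 RPM in wild type and 2408, 1807 and 2463 RPM in Adar2-/-. Here too the lowest value was in wild-type library 1, and the log2 fold change was 0.081 ± 0.34 (edgeR, adjusted p = 0.989). miR-541, from the Mirg gene, was at 1414, 1307 and 2082 RPM in wild type and 1553, 2010 and 1595 RPM in Adar2-/-, and the groups overlapped, with a log2 fold change of 0.10 ± 0.33 (edgeR, adjusted p = 0.989).

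Below these came miR-369-5p, with 976, 443 and 818 RPM in wild type and 596, 512 and 437 RPM in Adar2-/-. Its log2 fold change was -0.53 ± 0.37 (edgeR, adjusted p = 0.988), and wild-type library 2 was almost as low as the lowest knockout library. miR-300 was read at 686, 463 and 511 RPM in wild type and 415, 625 and 590 RPM in Adar2-/-, without a difference between the means beyond the spread. For miR-154 wild-type library 1 stood apart, with 136.4 RPM against 474 and 508 RPM in the other wild-type libraries. The 3 knockout libraries, at 313, 266 and 348 RPM, lay between these values.

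**Figure D2:**
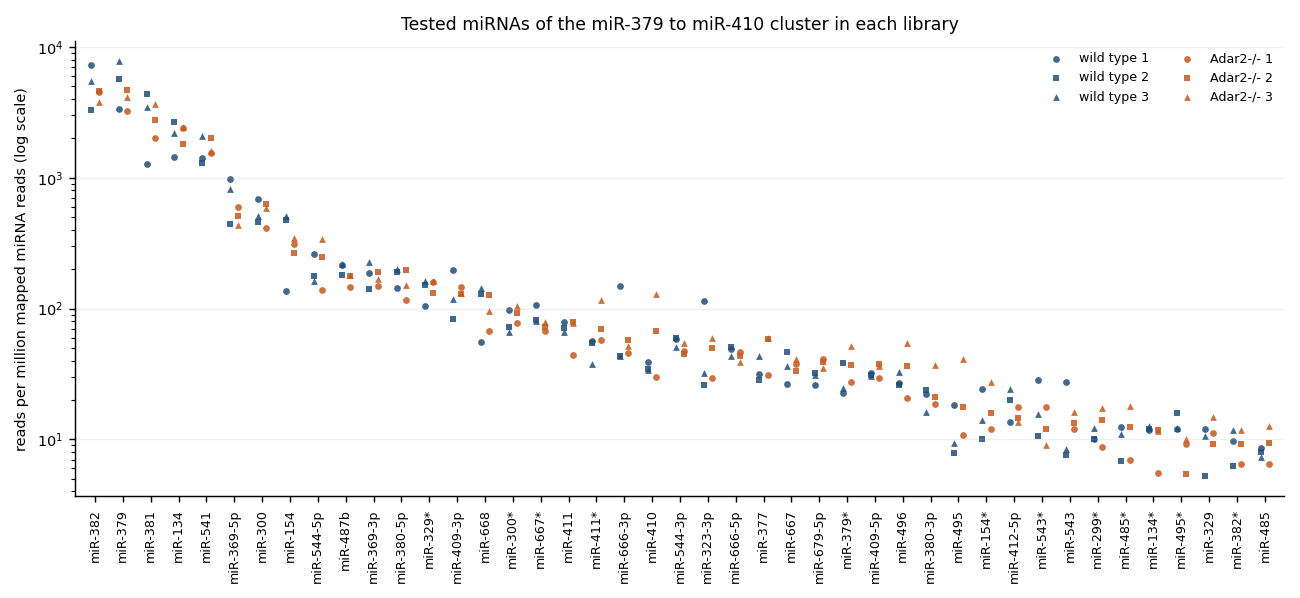
RPM of the 43 members with at least 100 reads in every library, ordered by mean level, on a log scale, with 1 point per library (blue wild type, orange Adar2-/-, symbols the replicate numbers). Levels run from miR-382, at 3324 to 7230 RPM, down to miR-485, and the colours overlap for 38 of the 43.

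The remaining members were read far less. A mean of 100 RPM or more was reached by 15 members, and 7 members had a mean under 1 RPM. The highest library exceeded the lowest 2.23-fold in the median of the 43 members, from 1.28-fold for miR-409-5p to 5.25-fold for miR-495. Of the 20 members under 100 reads in a library, 13 had at least 10 reads in every library. miR-1193-5p and miR-453 were not found in wild type, where 3 reads correspond to at most 0.241 RPM.

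The question of the design was whether loss of ADAR2 changes the level of these miRNAs. None of the 43 tested members passed the threshold of 0.05 for the adjusted p of edgeR's quasi-likelihood test, and neither did any of the 399 miRNAs tested (0%). At an unadjusted p under 0.05 there was 1 member, miR-410, against 13 of all 399 (3.26%). DESeq2 called 0 members and 1 miRNA outside the cluster, and gave an unadjusted p under 0.05 to 4 members and to 40 of all 399 (10%). The log2 fold change was above 0 in 21 members and below 0 in 22, with a median of -0.026, whereas all 399 had a median of 0.0023. In simulated libraries of the same depth, with a spread taken from the trend over all miRNAs, 200 of the 399 miRNAs were altered. The share of altered miRNAs that edgeR called was 29% for 2-fold and 98% for 4-fold differences. These shares could be lower with fewer miRNAs altered, and for members that spread more between libraries than the trend. A 2-fold difference would thus mostly not be detected by this design.

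Both directions were found on both arms. The 20 members from the 5p arm had a median log2 fold change of -0.13, with 9 above 0, and the 23 from the 3p arm had a median of 0.031, with 12 above 0. No relation between position in the cluster and log2 fold change was apparent, with a Spearman rho of -0.0051 over the 43 members, again as a description.

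**Figure D3:**
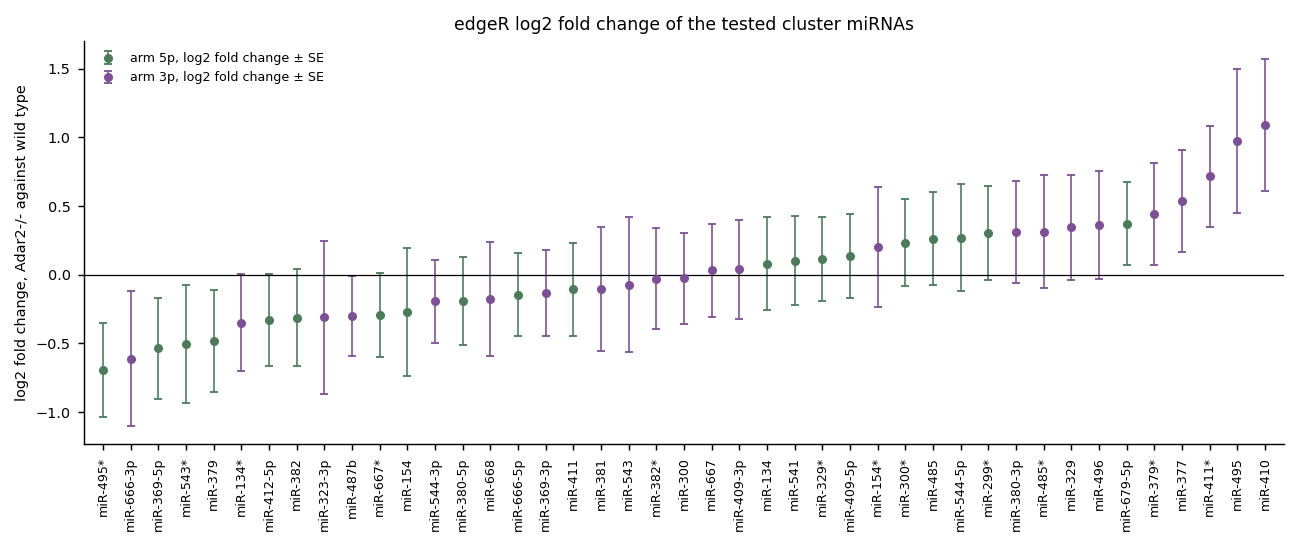
log2 fold change of Adar2-/- against wild type ± SE from edgeR for the 43 tested members, in ascending order and coloured by hairpin arm. The values run from -0.69 for miR-495* to 1.09 for miR-410 and most error bars reach 0.

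miR-410, from the last hairpin of the cluster, had the smallest unadjusted p of the members. Its level was 39.0, 34.3 and 33.8 RPM in wild type and 30.2, 67.8 and 130 RPM in Adar2-/-. Knockout libraries 2 and 3 were above all wild-type libraries, but knockout library 1 was below them. The log2 fold change was 1.09 ± 0.48, with an unadjusted p of 0.0463 and an adjusted p of 0.988 (edgeR), and it was 0.46 without knockout library 3.

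miR-495 followed the same order of libraries in the knockout. It was read at 18.2, 7.81 and 9.46 RPM in wild type and at 10.8, 17.6 and 41.0 RPM in Adar2-/-, and wild-type library 1 exceeded knockout libraries 1 and 2. The log2 fold change was 0.97 ± 0.52 (edgeR, adjusted p = 0.988) and was 0.27 without knockout library 3. miR-377 was at 31.4, 28.4 and 43.3 RPM in wild type and 31.2, 58.6 and 59.7 RPM in Adar2-/-, with a log2 fold change of 0.54 ± 0.37 (edgeR, adjusted p = 0.988), and knockout library 1 again lay within the wild-type range.

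When replicate 1 of both genotypes was left out, edgeR called 18 of the 399 miRNAs, all of them higher in Adar2-/- (4.51%), and miR-410 and miR-495 were the 2 members among them. Their log2 fold changes were then 1.54 and 1.76, each with an adjusted p of 0.0476 from edgeR. The calls rest on 2 libraries per genotype. Knockout library 3 was the highest of the 6 libraries in 15 of the 43 members, wild-type library 3 in 10 and knockout library 1 in 1. In the same knockout library 3 the 3 markers of pineal and sensory cells, miR-182, miR-183 and miR-96, summed to 19159 RPM, against 89664 to 186903 RPM in the other 5. Wild-type library 1 held 6270 RPM of the endocrine markers miR-375 and miR-7a, against 1010 to 3640 RPM elsewhere. The 4 neuronal markers summed to 138160 to 177283 RPM in all 6 libraries. The part of these differences in the values of the members was not tested. In whole brain, fewer cells of a type and less RNA per cell cannot be told apart, and since each library had its own sequencing lane, lane and brain cannot be told apart either.

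The RPM of 5 of the 43 tested members (11.6%) did not overlap between genotypes. Of these, 2 were higher in all Adar2-/- libraries and 3 were lower. Over all 399 miRNAs, 11 were higher without overlap (2.76%) and 12 were lower (3.01%). The share of 11.6% holds both directions, whereas each of these shares holds a single direction. The edgeR value is given with each.

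miR-495*, the 5p arm of the hairpin that also yields miR-495, was the lowest of all members in log2 fold change. It was read at 11.97, 15.98 and 12.23 RPM in wild type and 9.28, 5.47 and 10.1 RPM in Adar2-/-, so that every knockout library was below every wild-type library. The log2 fold change was -0.69 ± 0.34 (edgeR, unadjusted p = 0.0714, adjusted p = 0.988). The study picked out this miRNA from these same libraries, so its direction is no independent evidence.

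miR-134*, the rare partner of miR-134, had 11.89, 12.03 and 12.74 RPM in wild type and 5.58, 11.7 and 11.5 RPM in Adar2-/-. Knockout libraries 2 and 3 were just below the wild-type values and library 1 was far below, for a log2 fold change of -0.35 ± 0.36 (edgeR, adjusted p = 0.988) that was -0.076 without that library. miR-667* was read at 107, 81.1 and 80.1 RPM in wild type and at 66.9, 72.9 and 79.5 RPM in Adar2-/-. Its highest knockout value and its lowest wild-type value were nearly equal, and the log2 fold change was -0.29 ± 0.30 (edgeR, adjusted p = 0.988), or -0.14 without wild-type library 1.

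In the other direction, miR-411* was at 56.3, 54.9 and 37.5 RPM in wild type and 57.8, 69.9 and 116 RPM in Adar2-/-, with a log2 fold change of 0.72 ± 0.37 (edgeR, unadjusted p = 0.0810, adjusted p = 0.988). The lowest knockout library exceeded the highest wild-type library only slightly, and the log2 fold change was 0.37 without knockout library 3. miR-679-5p was read at 25.9, 32.1 and 31.1 RPM in wild type and 41.5, 39.0 and 35.1 RPM in Adar2-/-. This gave a log2 fold change of 0.37 ± 0.30 (edgeR, adjusted p = 0.988), with little spread within either genotype. Of the 20 members that were not tested, 13 had at least 10 reads in every library. Of these 13, 2 were higher in all Adar2-/- libraries, against 6 of all 209 miRNAs in that range of reads (2.87%). miR-494 was at 5.86, 5.14 and 7.24 RPM in wild type and 10.3, 8.73 and 8.61 RPM in Adar2-/-, and miR-377* was at 1.53, 1.49 and 1.66 RPM against 1.88, 2.54 and 2.46 RPM.

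miR-666-3p was among the members with the smallest p on the lower side because of a single library. It was read at 149 RPM in wild-type library 1, against 43.2 and 43.1 RPM in the other wild-type libraries and 45.5, 57.0 and 51.3 RPM in Adar2-/-. The log2 fold change of -0.61 ± 0.49 (edgeR, adjusted p = 0.988) turned to 0.25 without that library. Its partner miR-666-5p varied 1.30-fold over the 6 libraries.

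The balance of the 2 arms of a hairpin does not depend on the scaling of a library. It was taken as the log2 ratio of 3p to 5p reads in the 16 hairpins of the cluster with at least 100 reads on both arms in every library. The 5p arm had more reads in all 6 libraries in 9 hairpins, the 3p arm in 2, and the order varied in 5. For Mir329 and Mir667 the arm named as the star was the more abundant in every library. The mean ratio was higher in Adar2-/- in 12 hairpins and lower in 4, with a median difference of 0.27. The direction was not counted over the 102 hairpins of all miRNAs, so whether this is particular to the cluster was not tested. No hairpin could reach 0.05 in the two-sided exact permutation test, whose smallest p with 3 libraries against 3 is 0.1, and the smallest Benjamini-Hochberg adjusted p over the 16 hairpins was 0.8.

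Mir379 and Mir411, the first and the second hairpin of the cluster, were the 2 whose arm ratios did not overlap between genotypes (12.5% of 16, against 9.8% of the 102 hairpins of all miRNAs). In Mir411 the log2 ratio of miR-411* to miR-411 was -0.48, -0.37 and -0.83 in wild type and 0.39, -0.19 and 0.59 in Adar2-/-. The 5p arm was thus ahead in every wild-type library and the 3p arm in 2 of 3 knockout libraries, a difference of 0.83 (exact permutation p = 0.1, adjusted p = 0.8). miR-411 itself was at 78.6, 71.1 and 66.5 RPM in wild type and 44.0, 79.6 and 77.3 RPM in Adar2-/-, with a log2 fold change of -0.11 ± 0.34 (edgeR, adjusted p = 0.989).

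In Mir379 the 5p arm dominated in all 6 libraries. The log2 ratio of miR-379* to miR-379 was -7.21, -7.20 and -8.29 in wild type and -6.87, -6.97 and -6.32 in Adar2-/-, a difference of 0.85 (exact permutation p = 0.1, adjusted p = 0.8). Wild-type library 3 stood apart, and the difference was 0.49 without it. miR-379* was read at 22.7, 38.4 and 24.8 RPM in wild type and 27.6, 37.2 and 51.8 RPM in Adar2-/-, with overlap, and its log2 fold change of 0.44 ± 0.37 (edgeR, adjusted p = 0.988) was 0.18 without knockout library 3. The star arms of these 2 hairpins are the near copies shown above, and a read with few mismatches could be counted for either.

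The widest difference was that of Mir495, where the log2 ratio of miR-495 to miR-495* was 0.61, -1.03 and -0.37 in wild type and 0.22, 1.68 and 2.02 in Adar2-/-. The difference was 1.57 (exact permutation p = 0.2, adjusted p = 0.8), and knockout library 1 lay below wild-type library 1. The ratio of Mir300, the near copy of Mir381, was on average lower in Adar2-/-, at 2.55 ± 0.17 against 2.82 ± 0.13 in wild type (SD, n = 3), with overlap.

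**Figure D4:**
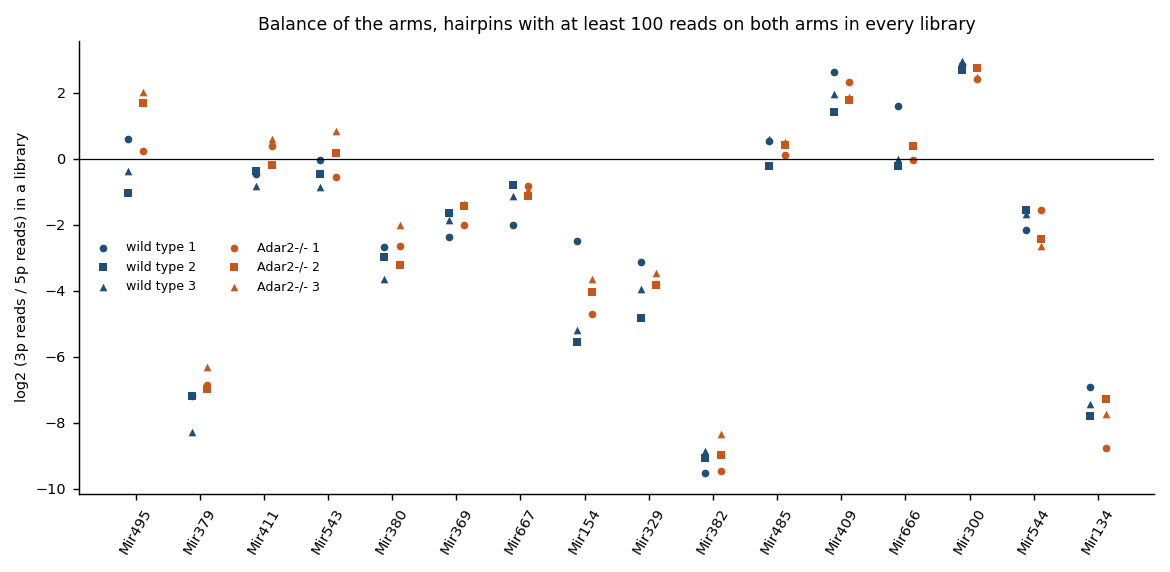
log2 ratio of 3p to 5p reads within each library for the 16 hairpins with at least 100 reads on both arms in every library (blue wild type, orange Adar2-/-, symbols the replicate numbers), ordered by the difference between genotypes. Mir379 and Mir411 are the hairpins whose colours do not overlap, and Mir495 has the widest difference.

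Members with similar sequences were compared with each other, because a read with mismatches could be assigned to either. The mapping allowed about 2 mismatches in a read. miR-369-3p and miR-154*, like miR-543 and miR-495, differed at 4 bases, so sharing is less likely there. Only 326 of the 1055 listed miRNAs, those whose sequence was reached by name, were compared, so further pairs may have been missed. Ungapped alignment of these found 10 pairs with at most 4 mismatches over at least 18 bases. In 4 of them both members had at least 100 reads in every library. Among these 4 pairs, a change of A to G was part of the difference only from miR-381 to miR-300 (A4G) and from miR-495 to miR-543 (A9G). For miR-411* to miR-379* the log2 ratio was 0.81 ± 0.44 in wild type and 1.05 ± 0.13 in Adar2-/- (SD, n = 3; exact permutation p = 0.4). For miR-300 to miR-381 it was -0.90, -3.23 and -2.76 in wild type and -2.29, -2.16 and -2.63 in Adar2-/- (exact permutation p = 1). Wild-type library 1 stood apart here, with more miR-300 and less miR-381 than the other wild-type libraries.

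miR-369-3p, known for acting on AU-rich elements, was read at 188, 140 and 227 RPM in wild type and 149, 190 and 167 RPM in Adar2-/-. The other member of its pair, miR-154*, was at 24.34, 10.10 and 14.02 RPM in wild type and 12.01, 16.03 and 27.53 RPM in Adar2-/-. The difference between genotypes of their log2 ratio was -0.32 (exact permutation p = 0.5). miR-543 had 27.63, 7.64 and 8.48 RPM in wild type and 11.96, 13.36 and 16.08 RPM in Adar2-/-, and wild-type library 1 was the highest. Its log2 ratio to miR-495 differed by -0.67 (exact permutation p = 0.3). Over the 4 pairs the smallest adjusted p was 0.667, and no pair separated the genotypes.

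The log2 fold changes were unevenly spread over base composition. Over the 41 tested members with a sequence, the share of G and C and the log2 fold change had a Spearman rho of -0.43, as a description of miRNAs that share libraries and hairpins. miR-410 and miR-495 were among the members poor in G and C, and miR-666-3p was among the richest. The log2 level in a single library relative to the median of the other 5 had a rho with G and C of -0.46 in knockout library 3 and -0.25 in knockout library 2, and of 0.22 in knockout library 1. In wild type it was -0.052, 0.21 and 0.0996 in libraries 1 to 3. The part of base composition in the fold changes was not tested.

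**Figure D5:**
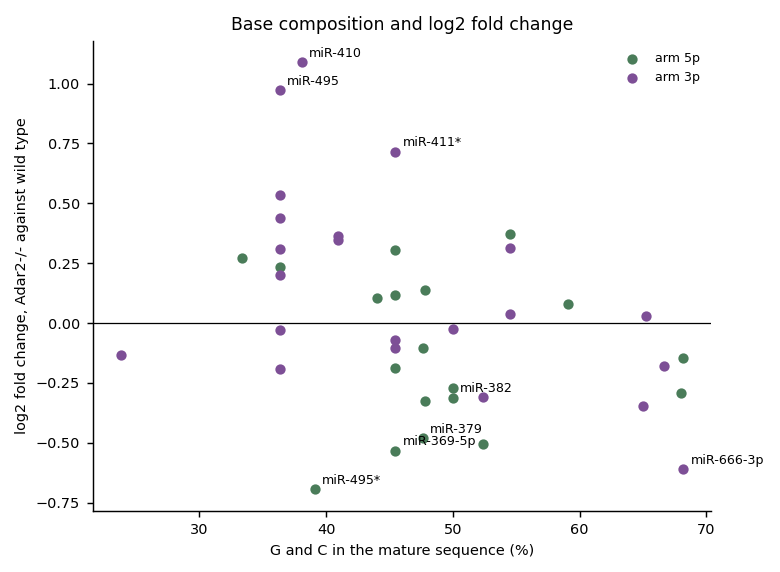
log2 fold change of Adar2-/- against wild type (edgeR) against the percentage of G and C in the mature sequence for the 41 tested members with a sequence, coloured by hairpin arm. Members poor in G and C lie higher on the whole, with a Spearman rho of -0.43, and miR-495* is poor in G and C and yet low.

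The other miRNAs of the domain, from fixed lists of miRNA numbers, gave no calls either. Of 11 listed miRNAs antisense to Rtl1, 9 were tested, 2 above 0 and 7 below, with a median log2 fold change of -0.19. The miR-376 family had 5 tested members with 3 above 0 and a median of 0.19, and 11 tested miRNAs near Meg3 had 4 above 0 and a median of -0.11. miR-1197, whose hairpin lies within the cluster but whose number is not among the 32, was read at too few counts to be tested.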

How the data were processed

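The authors removed adaptors, mapped the reads to the mature miRNAs of miRBase release 16 with NextGenMap at about 2 mismatches per read, discarded reverse-strand hits and gave weights to reads that matched several miRNAs equally well. They deposited whole-number read counts, without normalization, in 3 tables, each with 1 wild-type and 1 Adar2-/- library. Of the table lines, 12 blank ones were dropped. Total mapped miRNA reads, the depth, were 12449633 to 23471819 in wild type and 18645810 to 23935544 in Adar2-/-. Intervals cover counting error only.

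The quasi-likelihood test of edgeR 4.0.16 (R 4.3.3) was run on the counts of 399 miRNAs, those with no library under 100 reads. Library sizes were the totals without scaling, replicate numbers were not blocked, and p-values were adjusted after Benjamini-Hochberg, with 0.05 as threshold. For ratios, exact permutation tests (two-sided) were run in Python 3.11.15 with numpy 2.4.6, pandas 2.3.3 and scipy 1.17.1, and plots were made with matplotlib 3.10.9. The procedures were tested on simulated data. DESeq2 1.42.0 and the other alternatives are given in the closing section.

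Sequences are those of RefSeq, reached through the current arm names of the older star names, which were assigned by hand. Hairpins were placed on NCBIM37 by sequence or, for Mir544 and Mir666, by annotation. Members with full values were the 8 most read, for each direction the 4 with the lowest unadjusted p, miR-495*, miR-381 and miR-411, pairs of similar sequence, members without overlap and both arms of hairpins without overlap. miR-666-5p was added after its values were seen. Members, lists and rules were chosen with earlier results of these data known. The arrays, northern blots, reporter assays and editing levels were not analysed here.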

Additional observations from a re-analysis of the deposited data

How the results depend on the processing

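The 22 tested members with full values were fitted again under 16 alternatives, which gave 352 log2 fold changes. Of these, 320 kept direction and side of the threshold, 30 changed direction and 2 passed the threshold. DESeq2 called 1 miRNA outside the cluster. No pairing of the libraries by replicate number was seen, as same-numbered deviations correlated at 8.45e-05, -0.0771 and -0.0126. With 3 libraries per genotype such correlations cannot exclude a pairing. With the replicate block the count of calls stayed at 0, and miR-381 turned to 0.033 and miR-543 to 0.20, or to 0.035 and 0.19 with the block and TMM factors. For the ratios of pairs of similar sequence the difference of same-numbered libraries has the same mean by arithmetic and tests nothing. At most 3 mismatches left 2 of the 4 pairs.

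With a library or a replicate number left out, the count of calls ran from 0 to 18 over all miRNAs, from 0 to 2 in the cluster and from 0 to 1 in the other miRNAs of the domain. The counts above 0 come from leaving out replicate 1 of both genotypes. Members above 0 ran from 14, without knockout library 3, to 26, without knockout library 1, and their median log2 fold change from -0.09 to 0.21. For the arm ratios and the summed RPM only single libraries were left out, not whole replicate numbers. Hairpins whose arm ratios did not overlap then ran from 2 to 6, where fewer libraries overlap less often by construction. The log2 ratio of the summed RPM stayed between -0.29 and -0.09.

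Ranges of the log2 fold change that crossed 0 were -0.47 to 0.26 for miR-381, -0.19 to 0.42 for miR-134, -0.15 to 0.39 for miR-541, -0.25 to 0.32 for miR-300, -0.68 to 0.036 for miR-154, -0.99 to 0.33 for miR-666-3p, -0.28 to 0.19 for miR-411, -0.39 to 0.048 for miR-369-3p, -0.47 to 0.87 for miR-543 and -0.29 to 0.85 for miR-154*. Those of miR-410 (0.42 to 1.54), miR-495 (0.13 to 1.76), miR-411* (0.20 to 1.01), miR-377 (0.28 to 0.78), miR-379* (0.085 to 0.74) and miR-679-5p (0.23 to 0.47) stayed above 0. Those of miR-495* (-0.92 to -0.32), miR-382 (-0.61 to -0.031), miR-379 (-0.74 to -0.17), miR-369-5p (-0.80 to -0.29), miR-667* (-0.43 to -0.081) and miR-134* (-0.53 to -0.076) stayed below. With a single library left out, the arm difference ran from 0.49 to 1.03 in Mir379 and from 0.66 to 1.05 in Mir411. It was not computed with a whole replicate number left out, where the range could be wider. The cause of these shifts was not tested. Members near 100 reads carry more counting error than the well-read ones.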
